A study of Rattus norvegicus with 18 samples.

Results

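The 9 genes described here are transcripts of the red cell lineage: Gata1, Klf1, Alas2, Ahsp, Hbb, Slc4a1, Epb42, Rhag and Hemgn. They were chosen by name as erythroid genes, and all 9 have a probe set that carries their symbol alone, out of 14217 genes with such a probe set on the array. Slc4a1 has 2 such probe sets and the others 1 each, 10 in all; the probe set with the highest mean stands for Slc4a1 unless the second is named. RNA was measured on 18 one-colour arrays from a rat model in which ACI (RT1.Aa) recipients carried an abdominal heart graft from Wistar Furth (WF; RT1.Au) donors. The 3 treatments were none, oral cyclosporine (a calcineurin inhibitor; 10 mg/kg/day from day 0 to day 2), and the same cyclosporine course with the allochimeric peptide [a1h1/u]-RT1.Aa, given at 1 mg/kg through the portal vein at transplantation. Heart allografts and T cells were sampled on days 1, 3 and 7, with 1 array for each combination of tissue, treatment and day. The rats were adult males, the cyclosporine dose was described as sub-therapeutic, and the labels give Wistar Furth as the strain of all samples, T cells included, and they name no organ of origin for the T cells, whose strain is uncertain as well. Nothing in the labels ties an array to an animal or says if animals were pooled; p-values here cover only how far these samples spread, and that spread may be technical.

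Red cell precursors switch on a set of genes under transcription factors that include GATA1 and KLF1, load iron into heme, assemble hemoglobin and build a membrane skeleton before the nucleus is lost. Reticulocytes, the youngest red cells of the blood, still carry some of these messages. In rodents the spleen as well as the bone marrow can make red cells. The heart and T cells are not sites of red cell formation, and blood that remains in a tissue or cell preparation can bring red cell RNA with it.

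The upstream sequences of members with 5′ windows in RefSeq are shown because GATA1 and KLF1 are themselves members and bind short sequence motifs. Of the 9 genes, 7 matched an entry of the promoter table (build GRCr8), with 8 entries since Hemgn has 2; Ahsp and Slc4a1 did not. Each window reaches from 250 bases before to 50 after a start site, and the 250 bases before it are printed 5′ to 3′ for 4 members. Capitals mark a GATA motif (AGATAA or TGATAA on either strand, so TTATCA is the reverse of the second) or a CACCC motif (CCNCNCCC on either strand).
Klf1, GRCr8 chr19:40158652-40158901, minus strand: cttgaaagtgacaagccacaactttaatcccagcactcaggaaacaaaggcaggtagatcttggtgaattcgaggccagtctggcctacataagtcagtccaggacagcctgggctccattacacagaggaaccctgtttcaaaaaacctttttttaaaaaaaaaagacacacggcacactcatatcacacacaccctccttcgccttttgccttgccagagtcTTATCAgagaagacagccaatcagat
Rhag, GRCr8 chr9:27594391-27594640, minus strand: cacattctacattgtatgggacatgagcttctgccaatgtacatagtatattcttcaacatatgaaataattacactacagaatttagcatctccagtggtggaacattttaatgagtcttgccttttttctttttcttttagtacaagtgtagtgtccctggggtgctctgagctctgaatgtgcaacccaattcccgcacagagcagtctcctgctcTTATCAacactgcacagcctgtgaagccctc
Alas2, GRCr8 chrX:22895200-22895449, plus strand: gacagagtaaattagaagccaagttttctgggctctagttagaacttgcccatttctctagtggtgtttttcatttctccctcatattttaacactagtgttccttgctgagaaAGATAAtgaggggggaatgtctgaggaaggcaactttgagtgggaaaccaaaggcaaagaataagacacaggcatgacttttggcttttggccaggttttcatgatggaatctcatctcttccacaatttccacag
Hbb, GRCr8 chr1:167663722-167663971, minus strand: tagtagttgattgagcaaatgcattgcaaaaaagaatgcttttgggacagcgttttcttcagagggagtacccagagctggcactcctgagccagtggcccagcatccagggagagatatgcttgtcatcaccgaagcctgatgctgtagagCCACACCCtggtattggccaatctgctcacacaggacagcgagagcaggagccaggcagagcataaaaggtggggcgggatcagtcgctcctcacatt
The GATA motif lay in windows of 4 members. Its first base was 26 bases before the start site in Klf1, 31 before it in Rhag and 136 before it in Alas2, and the second Hemgn window held 2 matches. Of all 33469 rat promoter windows in the table, 18.94% held it. The CACCC motif lay in windows of 3 members, with 1 match in Hbb starting 98 bases before the start site, 1 in the first Hemgn window and 3 in Gata1, against 46.32% of all windows. Neither motif was in the Epb42 window. Both motifs together lay in 5.498% of all windows and in no single window of a member. The Alas2, Gata1 and both Hemgn windows belong to start sites inside the annotated genes. On chromosome X the Alas2 gene begins at base 22890650 and the Gata1 gene at base 17193291. The Hemgn gene, on the minus strand of chromosome 5, begins at base 65495384. A match describes letters in the window and was not tested for binding.

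Values are deposited linear intensities, and differences are log2 differences of intensity plus 16 with the standard error (SE) of the fit. Median intensity ran from 194.5 to 230.9 over the 18 arrays. The tissue labels were checked with marker lists: the summed intensity of 14 T cell markers was 63070 to 91000 in T cells and 1871 to 29130 in heart, and that of 11 cardiomyocyte markers was 529.6 to 764.6 in T cells and 121300 to 152600 in heart. The T cell array of the untreated group on day 1 stood apart. Its 10 neutrophil markers summed to 40860, against 1425 to 3867 in the other 8 T cell arrays, its 7 B cell markers to 32990, against 10390 to 21820, and its 14 T cell markers to 63070, the lowest of the T cell arrays. All 8 neutrophil and all 7 B cell markers that passed the filter were highest on that array. The part of other cells in the values of that array was not tested. Some day and tissue comparisons are given with and without it. The spread over the T cell arrays and the values of the T cell treatment comparisons are given only with it. None of these markers was listed at or below 0 on any array.

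Most of the tested erythroid messages were uneven over the T cell arrays. Alas2, the erythroid enzyme that starts heme synthesis, spanned 24.3-fold over the 9 T cell arrays. Ahsp, a chaperone of free alpha globin, spanned 22.1-fold. The standard deviation of log2 values over the 9 T cell arrays was 1.48 for Ahsp, 1.29 for Alas2, 1.05 for Hemgn, 0.75 for Klf1, 0.71 for Slc4a1 and 0.63 for Gata1, against a median of 0.17 over all probe sets that passed the filter on low values. These 6 members lay at or above the 98.17th percentile of that spread, Ahsp at the 99.97th. Epb42 and Rhag did not pass the filter, which asks for at least 3 arrays above the 40th percentile of the array, so 7 of the 9 members were tested in T cells. In these bulk samples more red cell precursors and more message per cell cannot be told apart.

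**Figure D1:**
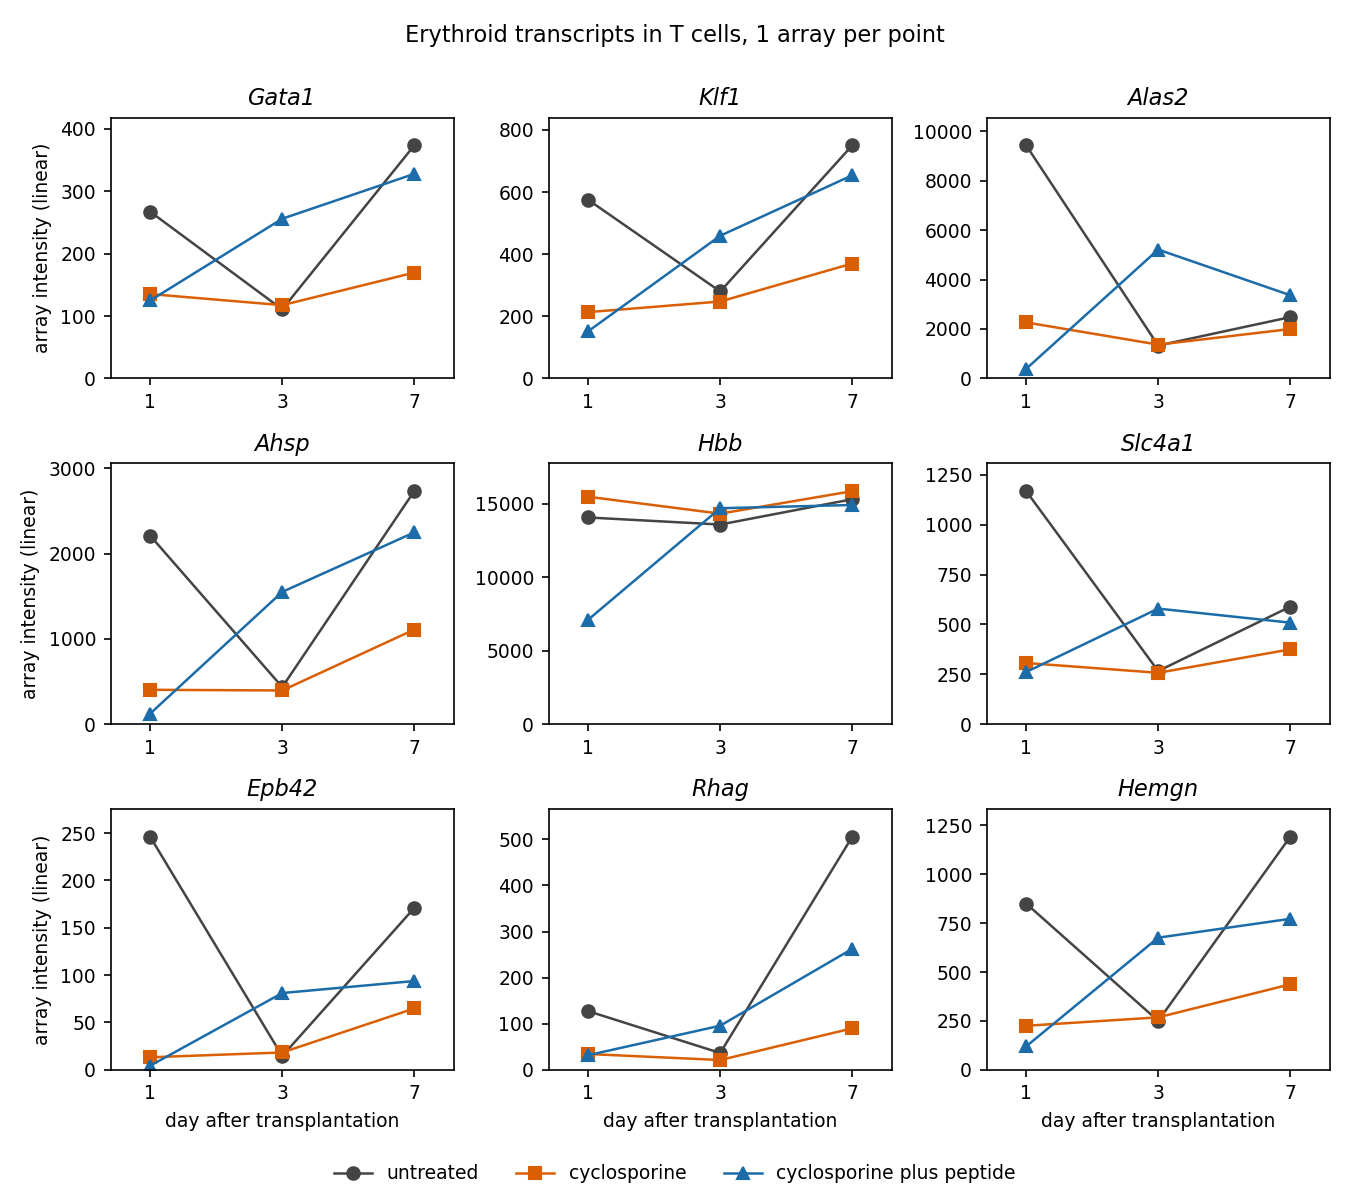
Intensity (linear, each panel from 0) of the 9 erythroid genes in T cells against the day after transplantation, with 1 array per point and colour and shape for the treatment; lines join the arrays of 1 treatment. The untreated group was high on days 1 and 7 and low on day 3 in the panels of the 6 tested genes other than Hbb, cyclosporine stayed below the untreated highs, and the cyclosporine plus peptide line starts from its lowest point on day 1; Hbb differed little apart from that day 1 array, at 7107.

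The transcription factors followed a common course. Gata1, a zinc finger factor that red cell formation depends on, read 267.2, 110.7 and 373.5 on days 1, 3 and 7 without treatment, 135.2, 117.4 and 169.6 with cyclosporine, and 124.9, 256 and 327.9 with cyclosporine plus peptide. Klf1, an activator of adult beta globin, read 575, 279.9 and 750.2 without treatment, 213.4, 247.6 and 369.9 with cyclosporine, and 151.8, 459.4 and 654 with cyclosporine plus peptide. Both were highest in untreated T cells on day 7. Hemgn, a nuclear protein of blood-forming cells, read 850, 250.2 and 1191 without treatment, 225.3, 268.3 and 437.1 with cyclosporine, and 120.1, 675.7 and 772.1 with cyclosporine plus peptide. For all 3 genes, each cyclosporine array lay below the 2 highest arrays of either other treatment, while the ranges of the treatments overlapped.

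The heme and globin genes split. Alas2 read 9423, 1328 and 2478 on days 1, 3 and 7 without treatment, 2264, 1365 and 1996 with cyclosporine, and 387.1, 5211 and 3366 with cyclosporine plus peptide. Its highest array was the untreated one of day 1, which is the array that stood apart, at 1.81-fold of the next. Ahsp read 2210, 434.7 and 2733 without treatment, 402.6, 394.7 and 1109 with cyclosporine, and 123.8, 1551 and 2249 with cyclosporine plus peptide, so untreated days 1 and 7 were close. Hbb, adult beta globin, ran from 7107 through a median of 14690 to 15850, a 2.23-fold span. Its lowest array was that of cyclosporine plus peptide on day 1 and the other 8 lay between 13580 and 15850. The highest intensity of any probe set on the array with the highest Hbb value was 19141, and whether Hbb differences were compressed near the top of the scale was not tested. The Hbb probe set has a suffix (_x_at) that the array's naming gives to probe sets that can also match other sequences, so its value may include other beta globin genes. Hba-a3, an alpha globin gene outside the 9, spanned 724.6 to 7652.

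Among the membrane genes, Slc4a1, the band 3 anion exchanger, read 1168, 266 and 588.7 without treatment, 306.5, 257.2 and 374.7 with cyclosporine, and 261.3, 579.2 and 508.7 with cyclosporine plus peptide. Its second probe set ranged more widely, from 68.72 in cyclosporine plus peptide on day 1 to 2301 in untreated day 1. Epb42, protein 4.2 of the membrane skeleton, read 246, 14.57 and 170.9 without treatment, 13.25, 18.35 and 64.8 with cyclosporine, and 4.385, 81.1 and 93.78 with cyclosporine plus peptide. Rhag, an ammonia channel of the red cell membrane, read 127.2, 36.52 and 505.2 without treatment, 34.32, 21.27 and 89.96 with cyclosporine, and 31.84, 95.71 and 262.3 with cyclosporine plus peptide. Each of these 2 genes was above the 40th percentile in 2 of 9 arrays, so their low values have no reliable order.

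Untreated T cells of day 1 and day 7 differed in which erythroid genes were high. On day 1 Alas2 was higher by 1.92 (log2), Slc4a1 by 0.97 and Epb42 by 0.49 than on day 7. Rhag, which was below the 40th percentile on day 1, was at -1.86, Hemgn at -0.48, Gata1 at -0.46, Klf1 at -0.37, Ahsp at -0.31 and Hbb at -0.12, that is, lower on day 1. Of the further red cell genes, chosen for display after their values were seen, Bpgm, which makes the hemoglobin ligand 2,3-bisphosphoglycerate, was higher by 2.02 on day 1, Nfe2 by 1.97, Tmcc2 by 1.79, Fech, the last enzyme of heme synthesis, by 1.60 and Hba-a3 by 1.31, while Car1, a red cell carbonic anhydrase, was at -1.15 and Tal1 at -0.90. These are 2 single arrays, so the differences carry no test and no replicate check. The neutrophil markers were higher on day 1 by a median of 3.62 over 8 passing genes, and of all passing probe sets 2.46% were more than 2-fold higher and 0.519% more than 2-fold lower. Nfe2 is also used by megakaryocytes, and the 4 passing platelet markers were higher by a median of 1.03; the part of either cell type in these differences was not tested.

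**Figure D2:**
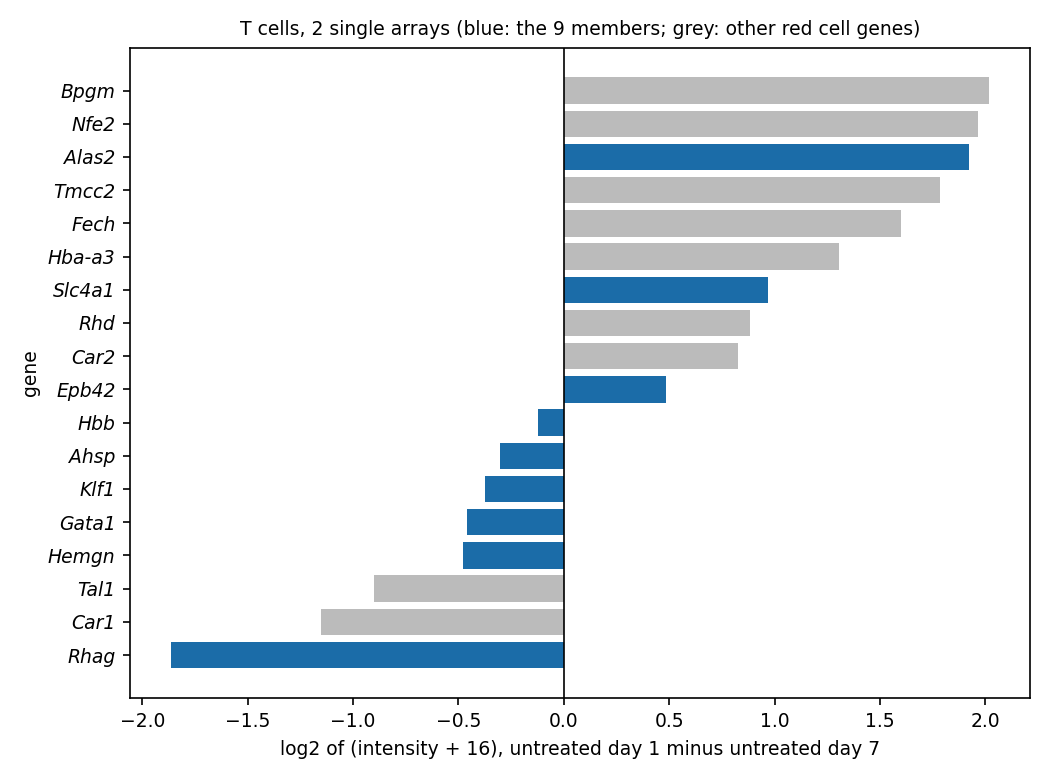
Log2 difference (intensity plus 16) between the untreated T cell arrays of day 1 and day 7, 1 array each, with bars to the right higher on day 1; blue bars are the 9 members and grey bars 9 other red cell genes. Alas2 reaches 1.92 and Rhag -1.86, with the other members between them.

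The treatment comparisons asked whether cyclosporine, alone or with peptide, changed these genes against no treatment, taken as the mean of 3 same-day differences. In T cells 0 of 7 members passed for cyclosporine minus untreated by limma with Benjamini-Hochberg adjustment, against 0% of all probe sets tested. The Ahsp difference was -1.28 ± 0.87 and lay below 0 on all 3 days (adjusted p = 0.585), and Klf1 was at -0.84 ± 0.39 (adjusted p = 0.456), also below 0 on 3 of 3 days. Their day 1 differences, -2.411 for Ahsp and -1.365 for Klf1, rest on the untreated array that stood apart. For cyclosporine plus peptide minus untreated, 0 of 7 passed against 0% of all, and for cyclosporine plus peptide minus cyclosporine 0 of 7 passed against 0% of all. In each of these 3 comparisons 0 members had an unadjusted p below 0.05. The peptide differences turned sign between days: Alas2 with cyclosporine plus peptide was at -4.55 against no treatment on day 1, 1.96 on day 3 and 0.44 on day 7. The SEs ran from 0.21 for Hbb to 1.01 for Alas2, and the Ahsp difference, with an SE of 0.87, was not told from 0.

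The day comparisons in T cells gave 0 of 7 members for day 3 minus day 1 (0% of all called), 0 of 7 for day 7 minus day 3 (0% of all) and 0 of 7 for day 7 minus day 1 (0.576% of all). At an unadjusted p below 0.05 the counts were 0, 1 (Gata1) and 1 (Klf1). From day 3 to day 7 all 7 tested members were at positive values in the fit, with a median of 0.81 against 0.007 over all probe sets, and Ahsp (1.53 ± 0.87), Hemgn (1.01 ± 0.60), Gata1 (0.81 ± 0.34), Klf1 (0.81 ± 0.39) and Hbb (0.11 ± 0.21) were positive in all 3 treatments. The lowest adjusted p among the members was 0.903. Slc4a1 and Alas2 were positive without treatment and with cyclosporine, and negative with cyclosporine plus peptide, at -0.18 and -0.63. From day 1 to day 7 Ahsp was at 1.92 ± 0.87, Klf1 at 1.04 ± 0.39 and Alas2 at 0.32 ± 1.01. Without the untreated array of day 1, Ahsp was at 2.99 ± 0.74 (adjusted p = 0.141) and Alas2 at 1.60 ± 0.85, and without the cyclosporine plus peptide array of day 1 Ahsp was at 0.62 ± 0.52 and Alas2 at -1.28 ± 0.50 (adjusted p = 0.242). The direction of Alas2 over that interval therefore turned with 1 array. In both cases 0 members passed, where 0.083% and 0.057% of all probe sets were called.

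In the heart allografts most members were lower than in T cells, and 1 array led. Alas2 read 965.1, 1325 and 259.3 on days 1, 3 and 7 without treatment, 1036, 1346 and 630.8 with cyclosporine, and 551.5, 3995 and 899.9 with cyclosporine plus peptide. Ahsp read 123.3, 179.5 and 78.78 without treatment, 148.5, 183.6 and 127.8 with cyclosporine, and 94.87, 595.4 and 133.5 with cyclosporine plus peptide. Both were highest in cyclosporine plus peptide on day 3, by 2.97-fold and 3.24-fold over the next array, and lowest in untreated day 7. Hbb read 14610, 16660 and 6669 without treatment, 14580, 16630 and 12840 with cyclosporine, and 11310, 18370 and 14320 with cyclosporine plus peptide. Its order over the arrays was close to that of Alas2, with the same highest and lowest array.

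**Figure D3:**
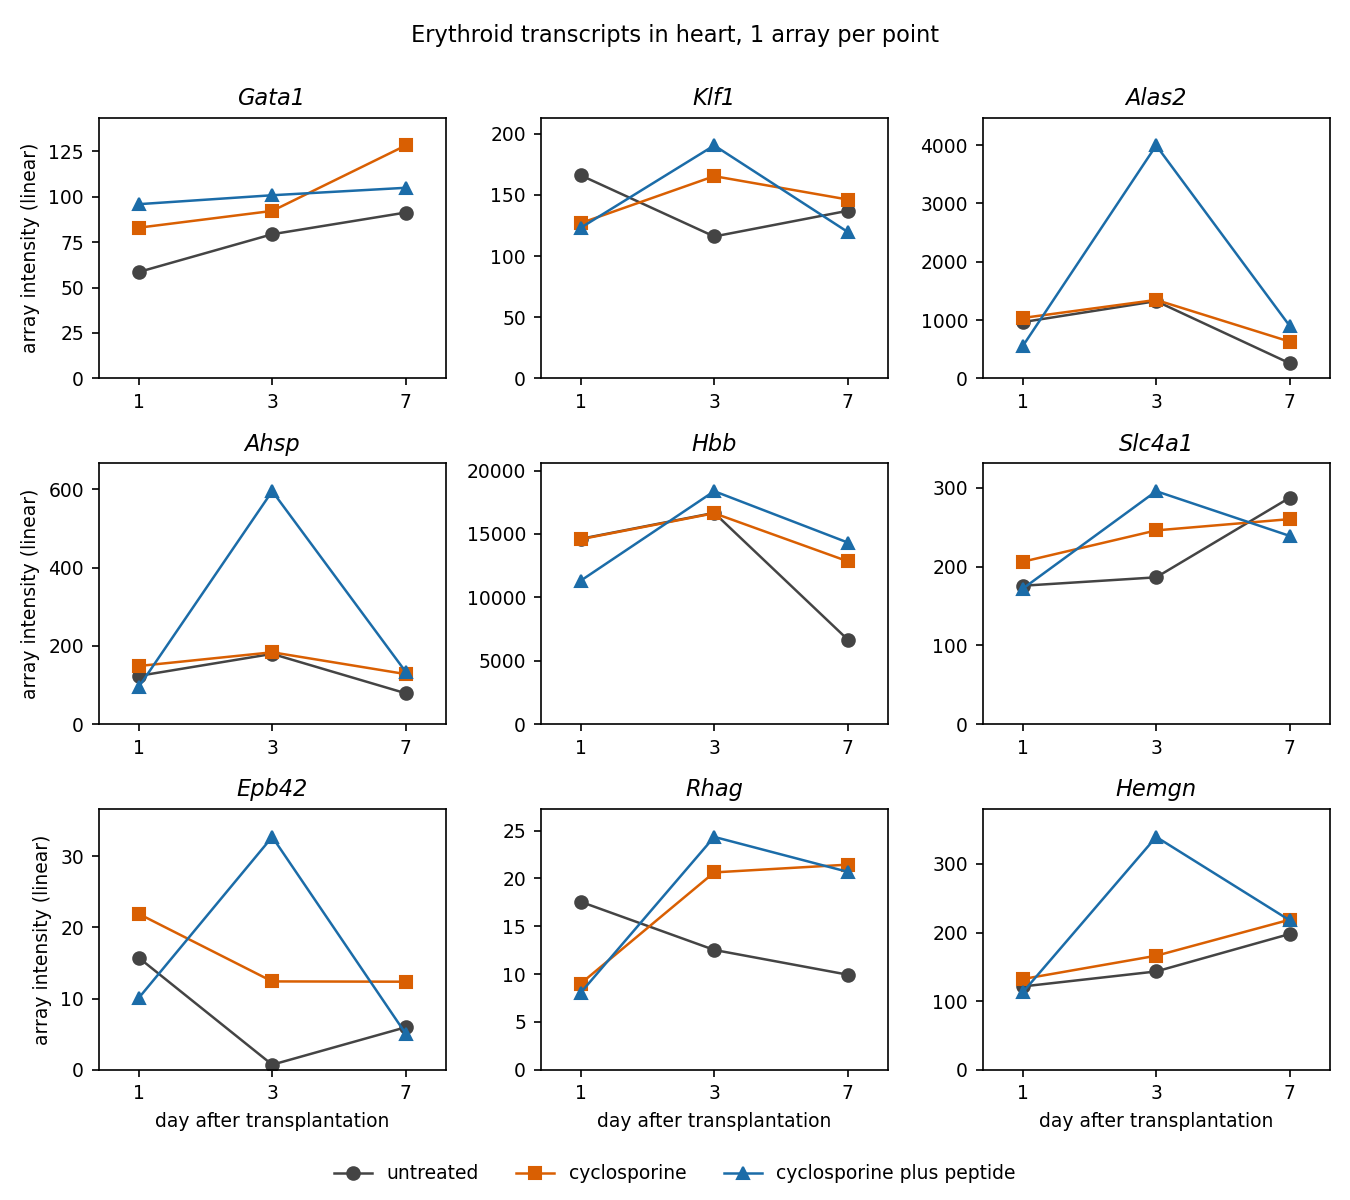
Intensity (linear, each panel from 0) of the 9 erythroid genes in heart allografts against the day after transplantation, with 1 array per point and colour and shape for the treatment; lines join the arrays of 1 treatment. The cyclosporine plus peptide array of day 3 is the highest for the 6 tested genes, with Alas2 at 3995 and Ahsp at 595.4.

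Among the other members in heart, Hemgn read 121.5, 143.4 and 198 without treatment, 132.3, 166.3 and 218.8 with cyclosporine, and 112.8, 339.5 and 217.9 with cyclosporine plus peptide. Slc4a1 ran from 171.9 through a median of 239 to 295.8 and Klf1 from 116 through 137 to 190.4. Gata1 (58.55 to 128.2), Rhag (8.058 to 24.34) and Epb42 (0.7194 to 32.72) lay below the 40th percentile on every heart array and were not tested there. Klf1 had an SD of 0.22 (log2) over the heart arrays, close to the median of 0.23 over all passing probe sets, while Alas2 had 1.06 (98.06th percentile) and Ahsp 0.77 (95.12th).

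All 6 members that passed in heart were highest in cyclosporine plus peptide on day 3, where 7.59% of all 19734 passing probe sets were highest. Against the cyclosporine array of the same day Ahsp was higher by 1.62, Alas2 by 1.56, Hemgn by 0.96, Slc4a1 by 0.25, Klf1 by 0.19 and Hbb by 0.14, as single arrays with no test. Of the further red cell genes, 3 are named by their level, after their values were seen. Tmcc2, a membrane protein gene, stood at 2763 there against at most 1425 elsewhere in heart, Bpgm at 2719 against at most 1489 and Rhd at 369.1 against at most 183.9. Most genes of the longer red cell lists were highest on other arrays. Those highest here were 9 of 23 late maturation, 7 of 21 membrane, 3 of 13 heme synthesis and 3 of 21 transcription and signalling genes. The 9 iron uptake genes all peaked elsewhere. The platelet marker sum was 6499 on this array, the second highest in heart (3452 to 6852, median 4455), and the neutrophil sum was 9619, the median of the heart arrays. The 15 proliferation genes summed to 12710, below the heart median of 14110.

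The heart treatment comparisons gave 0 of 6 members for cyclosporine minus untreated (0% of all probe sets called), 0 of 6 for cyclosporine plus peptide minus untreated (0% of all) and 0 of 6 for cyclosporine plus peptide minus cyclosporine (0% of all), by limma with adjusted p-values; 0 members had an unadjusted p below 0.05 in each. Alas2 with cyclosporine plus peptide against no treatment was at 0.84 ± 0.48 (adjusted p = 0.414), from -0.79 on day 1 to 1.73 on day 7. Hbb was higher than untreated on day 7 by 0.94 with cyclosporine and by 1.10 with cyclosporine plus peptide, and Alas2 by 1.23 and 1.73. These day 7 values share the untreated array, in which Alas2, Hbb and Ahsp were each lowest.

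The time course in heart moved some members. From day 3 to day 7 Alas2 fell by 1.83 ± 0.48 on the log2 scale (adjusted p = 0.0117), Ahsp fell by 1.18 ± 0.37 (adjusted p = 0.0261) and Hbb fell by 0.68 ± 0.23 (adjusted p = 0.0361), each in 3 of 3 treatments. That was 3 of 6 members called, all lower, where 56.4% of all probe sets were called in either direction, so the share is no higher than the background. For Ahsp every heart array of day 7 lay below the filter's percentile, so its fall ends in low values and its call is a description only. Slc4a1 (0.12 ± 0.16), Klf1 (-0.18 ± 0.19) and Hemgn (0.06 ± 0.23) did not pass. Hba-a3 also fell, by 1.40 ± 0.37 (adjusted p = 0.0119). Without the cyclosporine plus peptide array of day 3, Alas2 was at -1.35 ± 0.49 (adjusted p = 0.0582), Ahsp at -0.63 ± 0.23 (adjusted p = 0.0624) and Hbb at -0.68 ± 0.30 (adjusted p = 0.0992), and Hemgn, at 0.43 ± 0.12 (adjusted p = 0.0208), was the 1 member called. In that fit 47.6% of all probe sets were called. Without the untreated array of day 7, 1 member was called, where 51.2% of all were, and 1 likewise without the 3 cyclosporine arrays. These counts are a description and no result about the members.

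From day 1 to day 3 all 6 members tested in heart were at positive values and 0 passed (27.5% of all called); Alas2 was at 1.22 ± 0.48 (adjusted p = 0.0931), Ahsp at 1.08 ± 0.37 (adjusted p = 0.0648) and Hemgn at 0.66 ± 0.23 (adjusted p = 0.0689), and these 3 had an unadjusted p below 0.05. From day 1 to day 7 Hemgn rose by 0.72 ± 0.23 (adjusted p = 0.0249) and Slc4a1 by 0.47 ± 0.16 (adjusted p = 0.0283), in 3 of 3 treatments each, 2 of 6 members where 64.7% of all were called. For Hemgn every heart array of day 1 lay below the filter's percentile, so its rise starts from low values and its call is a description only. The second Slc4a1 probe set was at 0.78 ± 0.31 over the same interval and did not pass (adjusted p = 0.0551). Without the untreated array of day 7, 0 members passed, where 61.6% of all probe sets were called. Without the cyclosporine array of day 7, 0 passed, and without the untreated or the cyclosporine plus peptide array of day 1, 1 did. These counts are a description only. Over the same days the T cell marker sum of the hearts went from 1871 to 2961 on day 1 to 23460 to 29130 on day 7 and the endothelial sum from 18410 to 20140 down to 9197 to 11310, and the 3′ to 5′ ratio of the actin control probe sets, a sign of RNA quality, fell from 1.84 to 2.44 down to 1.41 to 1.43. Their part in the day differences was not tested.

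**Figure D4:**
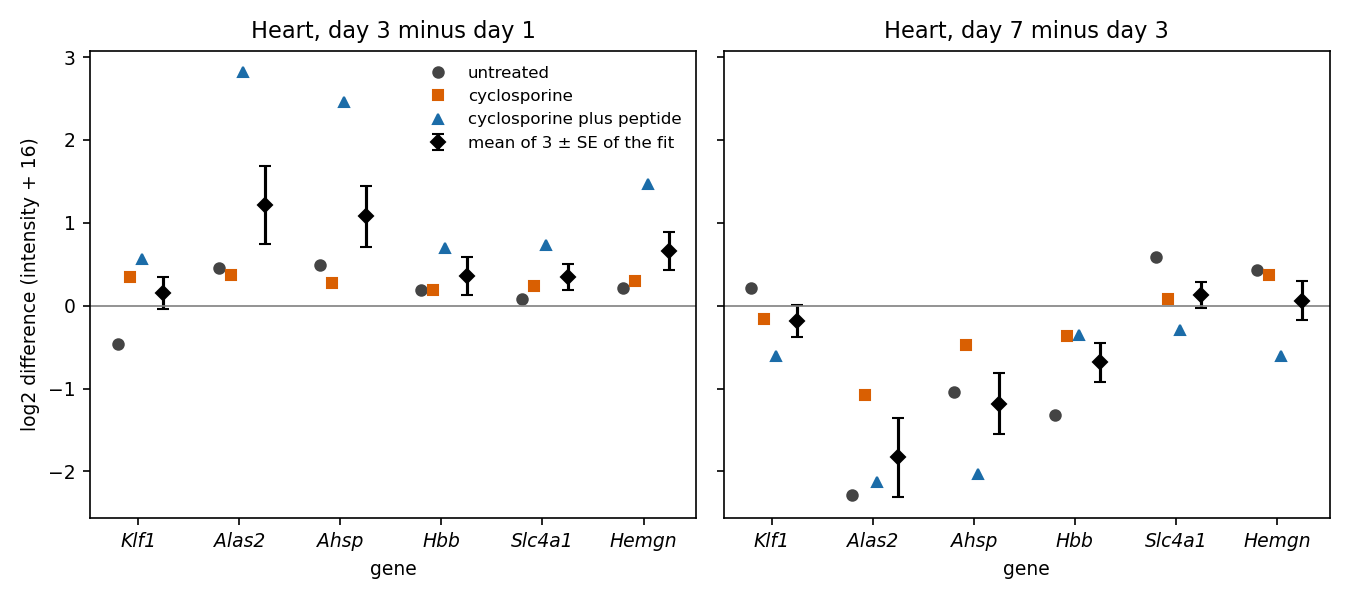
Log2 differences (intensity plus 16) in heart from day 1 to day 3 (left) and from day 3 to day 7 (right) for the 6 tested members; coloured points are the 3 treatments, 1 array on each side, and black diamonds the mean with the SE of the fit. On the right Alas2, Ahsp and Hbb lie below 0 in every treatment, while Slc4a1, Klf1 and Hemgn lie on both sides of 0.

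T cells were then set against heart over all 18 arrays. Of 7 members tested, 6 were higher in T cells and 0 lower, where 83.4% of all probe sets were called in either direction, so the count is near the background. Gata1 lay below the 40th percentile on every heart array and entered this test only through T cells, where it is high. Its call is therefore a description and no independent test of the tissues. The median of the members was 1.22 against 0.15 over all probe sets. Ahsp was higher by 2.34 ± 0.52 (adjusted p = 0.00066), Klf1 by 1.27 ± 0.24 (adjusted p = 0.000123), Hemgn by 1.22 ± 0.32 (adjusted p = 0.00216), Gata1 by 0.95 ± 0.19 (adjusted p = 0.000257) and Slc4a1 by 0.86 ± 0.25 (adjusted p = 0.00419), each in 9 of 9 same-day, same-treatment differences. Alas2 was higher by 1.22 ± 0.54 (adjusted p = 0.0476) in 8 of 9, and without the untreated T cell array of day 1 it was at 0.85 ± 0.47 (adjusted p = 0.101). The other 5 still passed in that refit, where 83.5% of all probe sets were called. The Alas2 call was lost in 17 of 32 alternatives, and those of the other 5 genes in 0 of 32. Hbb was at 0.01 ± 0.17 (adjusted p = 0.961), positive in 4 of 9. With no filter on low values Epb42 and Rhag were called higher as well, 8 members in all. Both lay below the 40th percentile on every heart array and on most T cell arrays, so their calls are a description only. The share of all probe sets called without the filter is not set beside this count.

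**Figure D5:**
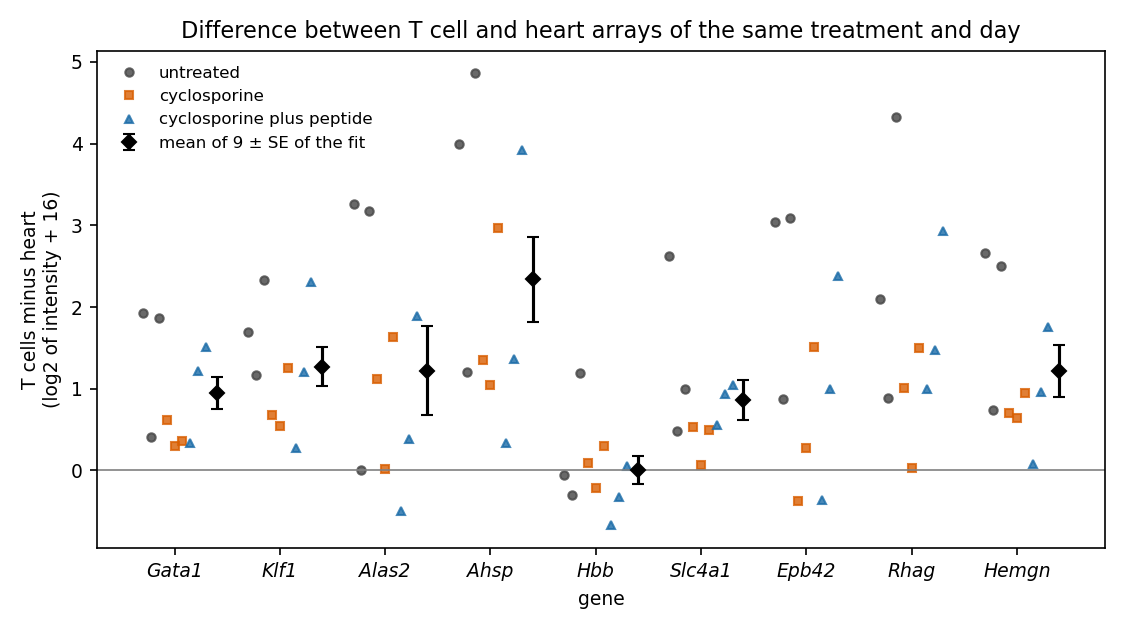
T cell minus heart differences (log2 of intensity plus 16) for the 9 genes; coloured points are the 9 pairs of arrays of the same treatment and day, and black diamonds the mean with the SE of the fit for the 7 tested genes. Ahsp lies highest among the tested means at 2.34 and Hbb at 0.01.

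The ranges of the 2 tissues overlapped for all 9 members. The share of all probe sets with such an overlap was not computed, so these range counts are a description only. Of the 9 T cell arrays, 8 were above the highest heart array for Klf1, 6 for Slc4a1, 5 for Ahsp and Hemgn, 2 for Alas2 and 0 for Hbb. Gata1, Rhag and Epb42 are not ranked, since all 9 heart arrays of each lay below the 40th percentile. Rhag and Epb42 also lay below it on 7 of 9 T cell arrays. The red pulp and iron-recycling macrophage markers, genes of the cells that clear old red cells in the spleen, summed to 24820 to 48400 in T cells and 11110 to 21620 in heart. Where 83.4% of all probe sets were called in either direction, 8 of these 11 markers were called higher in T cells, which is no more than the background. Their part in the difference was not tested.

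The difference between tissues in the time course was tested as an interaction, and 0 of 7 members passed for day 3 minus day 1 (8.8% of all called), 0 of 7 for day 7 minus day 3 (31.9%) and 0 of 7 for day 7 minus day 1 (46.7%). At an unadjusted p below 0.05 the counts were 0, 2 (Hbb and Ahsp) and 1 (Klf1). For day 7 minus day 3 Ahsp differed by 2.72 ± 1.06 (adjusted p = 0.0695). Without the cyclosporine plus peptide T cell array of day 1 the same Ahsp value had an SE of 0.66 (adjusted p = 0.0079), and Alas2, Hbb and Klf1 passed as well, 4 members in all. Without the cyclosporine plus peptide T cell array of day 3 the count was 2 (Ahsp and Klf1), and without the untreated one of day 1 it was 1 (Ahsp, adjusted p = 0.0221). For day 7 minus day 1, 2 members (Ahsp and Klf1) passed without the untreated T cell array of day 1. The share of all probe sets called in these refits is not set beside the counts. They are therefore not read as a result about the members. The interaction of tissue with cyclosporine gave 0 of 7 (0.00448% of all called), with Gata1 at -0.97 ± 0.40 (adjusted p = 0.447) the 1 member past an unadjusted p of 0.05, and that of tissue with cyclosporine plus peptide 0 of 7 (0.00448%), with 0 past an unadjusted p of 0.05.

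Other genes of red cell formation were read from lists chosen with earlier results of these data known. In T cells against heart, of the 22 tested genes of erythroid transcription and signalling 15 were higher and 3 lower, led by Myb, a factor of early blood cells, at 3.26 ± 0.23, E2f2 at 2.52 ± 0.23, Ldb1, a partner of GATA1 complexes, at 1.90 ± 0.05 and Epor, the erythropoietin receptor, at 1.34 ± 0.08 (adjusted p from limma 3.1e-14 to 3.49e-08). Myb and E2f2 are also expressed in dividing lymphoid cells. The list's median was 1.01, beside 0.15 over all probe sets. With 83.4% of all probe sets called in this comparison, the counts of this and the following lists are near or below the background and say nothing particular to them.

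Iron uptake and heme genes did not move as 1 block. Of 10 iron uptake genes 7 were called higher and 2 called lower in T cells, with Tfr2, transferrin receptor 2, at 0.98 ± 0.09, Slc25a37, the mitochondrial iron carrier mitoferrin 1, at 0.88 ± 0.10 and Steap3, a ferrireductase, at -2.05 ± 0.16. Of 13 heme synthesis genes 4 were higher and 3 lower, with a median of -0.07; Alas1, the housekeeping counterpart of Alas2, was at -1.99 ± 0.12 and Alad at -1.19 ± 0.17. Of 3 tested globin genes, Hbe2, an embryonic globin gene by its annotation, was higher by 1.17 ± 0.22 and the others did not pass. Hbe2 did not pass the filter within heart, so its call is a description only.

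The membrane and maturation lists were split as well. Of 21 red cell membrane and skeleton genes the T cells had 10 at higher and 8 at lower levels. The lower ones were led by Tmod1, an actin-capping protein, at -4.06 ± 0.17, Aqp1, a water channel, at -3.51 ± 0.59 and the skeleton genes Ank1 at -3.32 ± 0.22 and Sptb at -2.74 ± 0.10. Tmod1, Ank1 and Sptb are also expressed in muscle and Aqp1 in endothelium, and the 9 endothelial and 11 cardiomyocyte markers were all lower. Of 25 late maturation genes 8 were higher and 9 lower, with Car1 at 3.22 ± 0.39 and Tspan33, a red cell precursor tetraspanin, at 2.50 ± 0.16. Without the untreated T cell array of day 1 the counts over these 6 lists were within 2 genes of those given.

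In heart from day 3 to day 7, where 56.4% of all probe sets were called, the red cell membrane list held 3 genes that rose and 11 that fell of 21, with a median of -0.47. Set against that background, the counts of this and the following lists are given as a description. Aqp1 fell by 2.12 ± 0.17, Xk by 1.04 ± 0.12 and Tmcc2 by 0.91 ± 0.24, while Kcnn4, a calcium-activated potassium channel also found in activated T cells, rose by 2.02 ± 0.16. Of 23 late maturation genes 4 rose and 10 fell and of 13 heme synthesis genes 2 rose and 5 fell, among them Fech, which fell by 0.60 ± 0.10. Of 21 transcription and signalling genes 10 rose and 4 fell, with Myb at 1.90 ± 0.14 and Tal1 at -0.85 ± 0.17. Of 9 iron uptake genes 5 rose and 2 fell, with Tfrc, the transferrin receptor, at 0.57 ± 0.10. All 9 endothelial markers fell, with a median of -0.71, and all 13 T cell markers rose, with a median of 2.84. Of 8 neutrophil markers 6 fell and 0 rose, with a median of -1.28, and of 11 monocyte and macrophage markers 9 rose and 1 fell, with a median of 1.01. Whether these markers bear on these lists, or on the falls of Alas2, Ahsp and Hbb, was not tested.

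In T cells 0 genes of the 6 red cell lists passed in any treatment or day comparison by limma. In the untreated array of day 1, 13 of 24 passing late maturation genes and 9 of 19 membrane genes had their highest T cell value, where 16.8% of all passing probe sets did. So did 4 of 13 heme synthesis and 2 of 10 iron uptake genes. The trait was not particular to red cell genes. Also highest there were 8 of 8 neutrophil, 7 of 7 B cell, 4 of 4 platelet, 8 of 11 monocyte and macrophage and 6 of 8 endothelial markers, but 1 of 14 T cell markers. Of the 22 transcription and signalling genes, 7 were highest in untreated day 7 and 5 in untreated day 1, where 6.25% and 16.8% of all were.

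The genes whose course over the arrays was most like that of Alas2 or Hbb were named from Pearson's r over the 9 arrays of a tissue, as a description with no test. In T cells the closest to Alas2 were Tmcc2 (r = 0.991), Hba-a3 (0.983), Selenbp1 (0.973), Fech (0.958), Clta (0.955), Car2 (0.952), Atp6ap1l (0.946) and Rhd (0.935). All 8 were highest in untreated day 1. Left without the 2 arrays farthest from the median of Alas2, untreated day 1 and cyclosporine plus peptide day 1, their r ran from 0.843 to 0.979. Among the members Slc4a1 was closest to Alas2 at 0.860 and Gata1 farthest at 0.668.

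In heart the closest to Alas2 were Tmcc2 (r = 0.970), Hba-a3 (0.960), Maml1 (0.953), Dpep1 (0.952), Phf2 (0.946), Mzf1 (0.934), Zfp869 (0.920) and Cnnm3 (0.919), so Tmcc2 and Hba-a3 led in both tissues. Without cyclosporine plus peptide day 3 and untreated day 7 these 8 had r of 0.464 to 0.879. Of the members, Ahsp was at 0.942 and Hbb at 0.896, and Hemgn at 0.397 and Slc4a1 at 0.0994. The genes closest to Hbb in heart were Add3 (0.977), Gask1b (0.962), Ogn (0.950), Dpt (0.949), Gpc6 (0.948), Slco2b1 (0.938), Pdgfra (0.937) and Elf2 (0.937). Ogn and Dpt encode matrix proteins and Pdgfra is a fibroblast receptor, and none of the 8 was among the 8 closest to Alas2. In T cells the genes closest to Hbb, Arhgdig, Tln2, Yipf4, Hfe, Rit1, Ptgdr2, Hoxb4 and Adipor2, had r of 0.884 to 0.944, but from -0.461 to 0.464 without cyclosporine plus peptide day 1 and untreated day 3, so the likeness rested on those arrays.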

How the data were processed

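RNA was measured on 18 arrays, 9 of heart allografts and 9 of T cells. The values the authors deposited are linear intensities, 1 for each probe set on each array, with labelling by an Enzo amplification kit per the labels' protocols; for software and normalization, the sources used here give no name. Of the intensities 771 lay below 0 and were set to 0. Tests ran on log2(intensity + 16) without further scaling, a transform that understates the change of weak genes. Of 31042 probe sets besides 57 controls, 20826 have 1 symbol in the platform annotation, 436 several and 9780 none, and genes were named from single symbols only. A gene is represented by the probe set with the highest mean log2 value over 18 arrays. Probe sets entered a test if 3 or more of its arrays exceeded that array's 40th percentile.

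Models were fitted in R 4.3.3 by limma 3.58.1 (lmFit and eBayes with a trend), with Benjamini-Hochberg adjustment over all probe sets tested and an adjusted p below 0.05. Each tissue was fitted with treatment and day (4 residual degrees of freedom), tissue over 18 arrays with 12, and the interactions with 8. The fits were also run on simulated arrays with independent noise and known changes. Those simulated data held no array that stands apart, so they do not show how the fits behave with the untreated T cell array of day 1. With 1 array per combination, the residual spread is how unevenly treatments differ over days, plus array noise, and the number of arrays limits the precision.

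The members and the 15 further gene lists (253 entries, 200 with a probe set) were chosen with earlier results of these data known. Named were all 9 members, up to 4 called genes per list and comparison by size, any list gene by its level, and the 8 genes most correlated with Alas2 and with Hbb in each tissue. Alternatives were other offsets (4 and 64), quantile normalization of the 18 arrays together or by tissue, median centring, no filter, the mean of all probe sets of a gene and leaving out each array, day or treatment. The second Slc4a1 probe set, the block of heart and T cell pairs and the list counts without single arrays were added after seeing the data.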

Additional observations from a re-analysis of the deposited data

Results flagged for a closer look

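Ahsp in cyclosporine minus untreated was above 0 on all 3 days in heart (0.03 to 0.60, mean 0.29) and below 0 on all 3 days in T cells (-2.41 to -0.13, mean -1.28). The signs were opposite, though some differences were near 0. On day 7 both heart arrays lay below the 40th percentile. The T cell value of -2.41 rests on the untreated array of day 1, which stood apart. The difference of -1.57 did not pass as an interaction in limma (adjusted p = 0.650).

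From day 3 to day 7 Hbb was below 0 in all 3 treatments in heart (mean -0.68) and above 0 in all 3 in T cells (mean 0.11), a difference of 0.80 (adjusted p = 0.105 for the interaction in limma). Ahsp went the same ways over that interval, with means of -1.18 in heart and 1.53 in T cells and a difference of 2.72 (adjusted p = 0.0695). Every heart array of day 7 lay below the filter's percentile for Ahsp.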

How the results depend on the processing

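Of 397 recomputed counts of called members, 375 stayed within 1.5 times the count as reported. Under the other offsets, the quantile normalizations, median centring and the mean of all probe sets, every such count did. With no filter, 1 member was called for the tissue difference in day 7 minus day 3 and 1 in day 7 minus day 1. With the second Slc4a1 probe set, 1 member was called in heart from day 1 to day 7. Leaving out arrays, a day or a treatment gave 0 to 1 members for heart day 3 minus day 1, 1 to 4 for day 7 minus day 3, 0 to 3 for day 7 minus day 1, 0 to 4 for the tissue difference in day 7 minus day 3, 0 to 2 for that in day 7 minus day 1, and 5 to 6 for T cells minus heart, Alas2 being the member lost. These counts are not set beside the share of all probe sets called in each refit, so they are a description only. Of 291 recomputed values of the 11 member values called, 40 no longer passed and 0 turned sign. Of 2353 recomputed values of uncalled members, 175 turned sign. The cause was not tested. With the 9 pairs of arrays of the same treatment and day as a block, added after seeing the data, 6 members were again called in T cells minus heart, Alas2 with an SE of 0.39 (adjusted p from limma 0.0135); the labels do not say that such arrays share an animal. The fits within a tissue already hold treatment and day as terms. Single arrays per combination limit all of these comparisons.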
